A study of Mus musculus with 30 samples.

Results

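The SLC25 family is the large family of mitochondrial carriers, and its transcripts are described here in mouse soleus with and without the energy sensor AMP-activated protein kinase (AMPK) and with and without weight bearing. A gene was a member when its symbol was Slc25a followed by a number, and it was kept when it had at least 10 raw counts in at least 7 of the 30 libraries. Of 56980 genes in the deposited table, 47 carried such a symbol and 41 were kept. Just inside that limit were Slc25a2, with 10 counts or more in 13 libraries, and Slc25a18, with 18 such libraries. Just outside it was Slc25a48, with 2 such libraries and at most 28 counts. The other 5 that were left out, Slc25a21, Slc25a31, Slc25a41, Slc25a43 and Slc25a54, never exceeded 8 counts.

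Mitochondrial carriers sit in the inner membrane, which small charged molecules cannot cross unaided. Most of them exchange a substrate of the matrix for one of the cytosol, and carriers are grouped by what they move: nucleotides and phosphate, organic acids, amino acids, fatty acids bound to carnitine, cofactors, or iron. In oxidative muscle such as the soleus, the exchange of ADP for ATP and the entry of phosphate feed the ATP synthase, and the shuttles that use carriers bring reducing equivalents and acyl groups into the matrix. The transcripts measure RNA, not the carriers or their activity.

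RNA came from the soleus, a postural calf muscle, of 30 mice of the C57BL/6J strain at an age of 3 to 4 months. The HU mKO group (8 mice) lacked both catalytic AMPK subunits, alpha1 and alpha2, in skeletal muscle and spent 4 weeks in hindlimb unloading, in which the hind paws do not bear weight. The HU Ctrl group (7 mice) carried floxed alleles of both subunit genes without Cre and was unloaded for the same time. The AMB mKO group (7 mice) had the muscle knockout and walked freely, and the AMB Ctrl group (8 mice) was floxed without Cre and walked freely. Every control carried the floxed alleles and none carried Cre, so Cre and the loss of AMPK cannot be told apart. The promoter that drives Cre is not given in the sources used here. Each group held both sexes, with 3 males in HU mKO, 4 in HU Ctrl, 5 in AMB mKO and 3 in AMB Ctrl.

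Library totals were 12.1 to 20.9 M counts (M for 10 to the power 6), and levels are given as CPM, counts scaled to library size, after trimmed-mean (TMM) scaling. Of the targeted genes, Prkaa2, which encodes the alpha2 subunit, was at 80.1 ± 18.6 CPM in HU mKO (SD, n = 8), 254 ± 73.5 in HU Ctrl (n = 7), 60.3 ± 26.4 in AMB mKO (n = 7) and 213 ± 28.5 in AMB Ctrl (n = 8). Prkaa1, which encodes alpha1, was nearer to the controls, at 17.5 ± 3.9 CPM in HU mKO, 25.3 ± 3.0 in HU Ctrl, 17.1 ± 8.96 in AMB mKO and 20.996 ± 2.7 in AMB Ctrl, and its values overlapped with those of the controls in both loading states. AMB mKO replicate 2 had 36.0 CPM of Prkaa1, above every control, and the mean of the other 6 AMB mKO mice was 14.0 ± 3.7. Its Prkaa2 was the lowest of its group, at 14.9 CPM, and the other 6 averaged 67.9 ± 18.9. The counts cover the whole gene, and which part was deleted is not stated. The library of AMB mKO replicate 2 stood apart, with 115 CPM of the slow myosin Myh7, against at least 4305 CPM in each other library. Its 10 fast fibre markers also summed to only 3287 CPM, against at least 17341 in each other library. Its 10 adipocyte markers summed to 12178 CPM, against at most 4705 in each other library. Where a change printed for a member moved by over 1.5 times, or its call changed, without this library, the value without it is given as well. In whole tissue, fewer cells of a type and less RNA per cell cannot be told apart. Nothing in the labels says which mice shared a litter or cage.

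Members differed widely in level once counts were divided by the length of the merged exons. These cover all annotated exons of a gene, with 2353 bases for Slc25a4, 5550 for Slc25a3 and 7342 for Slc25a12. Which exons were in use here was not examined, so levels per kb, their order and shares depend on the annotation. Slc25a4, the ADP/ATP carrier of heart and skeletal muscle, was at 818 CPM per kb averaged over the 30 libraries and held 63.0% of the family's summed CPM per kb. The phosphate carrier Slc25a3 came next with 116 CPM per kb, then the oxoglutarate/malate carrier Slc25a11 with 82.4 and the aspartate/glutamate carrier Slc25a12 with 52.6. Slc25a5, the ADP/ATP carrier found in many tissues, followed with 31.3 CPM per kb, and the carnitine/acylcarnitine carrier Slc25a20 with 16.8. The lowest kept members were the ornithine carrier Slc25a2 with 0.41 and the glutamate carrier Slc25a18 with 0.39 CPM per kb. Slc25a13, the paralogue of Slc25a12, was at 0.77 CPM per kb.

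**Figure D1:**
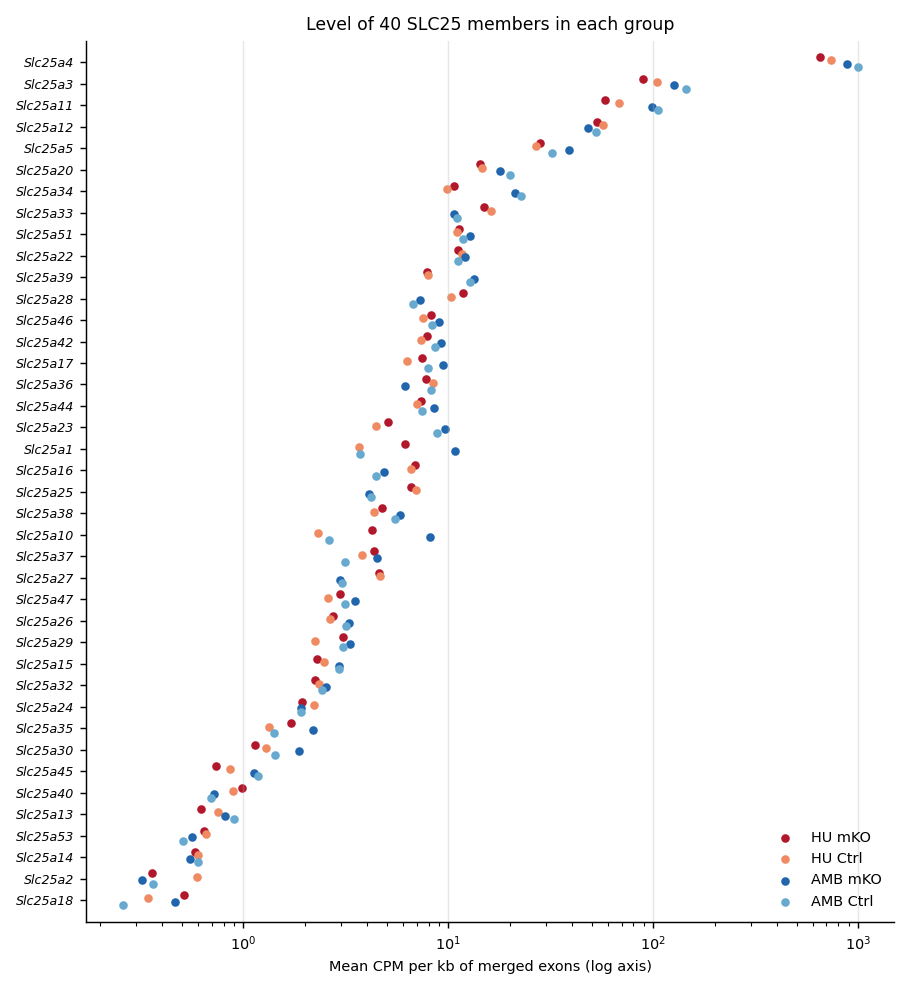
Mean CPM per kb of merged exons for each of 40 members in each group, on a log axis, sorted by the mean over all 30 libraries, with 1 point per group. Slc25a4 lies alone at the top and Slc25a18 at the bottom, and for most members the 4 groups lie close together on this axis.

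Summed over the 41 members, the family made up 3433 ± 794 CPM in HU mKO (SD, n = 8), 3742 ± 667 in HU Ctrl (n = 7), 4332 ± 1426 in AMB mKO (n = 7) and 4688 ± 1000 in AMB Ctrl (n = 8). Slc25a4 held 44.0 ± 4.7% of that sum in HU mKO, 46.4 ± 1.6% in HU Ctrl, 44.2 ± 14.0% in AMB mKO and 49.4 ± 2.9% in AMB Ctrl. AMB mKO replicate 2 alone had a family sum of 1515 CPM, of which Slc25a4 held 13.5%. Without it AMB mKO had a sum of 4802 ± 766 CPM (n = 6), above rather than below the mean of AMB Ctrl, and a Slc25a4 share of 49.3 ± 4.0%. The spread between mice of 1 group, as a pooled standard deviation on the log2 scale, had a median of 0.37 over members, and of 0.33 without AMB mKO replicate 2. It was widest in the citrate carrier Slc25a1 (1.17), the orphan carrier Slc25a34 (0.99) and the dicarboxylate carrier Slc25a10 (0.93), and narrowest in the folate carrier Slc25a32 (0.18). Without that library Slc25a34 was at 0.59 and sixth, and the widest were Slc25a1 (0.92), Slc25a10 (0.69) and Slc25a25 (0.68).

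After hindlimb unloading 7 members (17.1%) changed in at least 1 genotype, where 15% of all genes did, and 4 of them in both. In HU mKO against AMB mKO, 6 of the 41 members (14.6%) passed the test, with 2 higher and 4 lower, where 9.67% of all 17466 genes tested passed, 5.07% higher and 4.6% lower. In HU Ctrl against AMB Ctrl, 5 members (12.2%) passed, with 3 higher and 2 lower, where 10.7% of all genes passed, 5.18% higher and 5.53% lower. The test is edgeR's quasi-likelihood test in 1 model of the 4 groups and sex over all 30 libraries, and a member rose or fell when its Benjamini-Hochberg adjusted p over all genes was below 0.05. Both shares are near those of all genes. The ATP-Mg/phosphate carrier Slc25a23 and the glutathione carrier Slc25a39 fell in both comparisons, and the uncoupling protein relative Slc25a27 and mitoferrin 2, Slc25a28, rose in both. The carrier Slc25a30 fell in the mKO comparison alone, and Slc25a16, linked to coenzyme A, rose in the Ctrl comparison and was just short of the threshold in mKO mice, and for no member did the difference in response between genotypes pass the test.

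The median log2 change of the members was -0.23 in HU mKO against AMB mKO, with 12 members above 0 and 29 below, and -0.03 over all genes. In HU Ctrl against AMB Ctrl it was -0.07, with 17 members above 0 and 24 below, and 0.03 over all genes. The medians of the members were -0.20 and -0.12 without AMB mKO replicate 2. These 2 comparisons share no library, and 36 of the 41 members (87.8%) had fitted changes of the same sign in both, against 75.2% of all genes. Both comparisons called 4 members (9.76%), against 5.36% of all genes. At an unadjusted p below 0.05 there were 18 members in the mKO comparison (43.9%, where all genes gave 26.9%) and 15 in the Ctrl comparison (36.6%, where all genes gave 25.9%). The values of every mouse in 1 group lay beyond those of the other for 3 members in the mKO comparison, against 1.47% of all genes, and for 2 in the Ctrl comparison, against 3.46%.

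**Figure D2:**
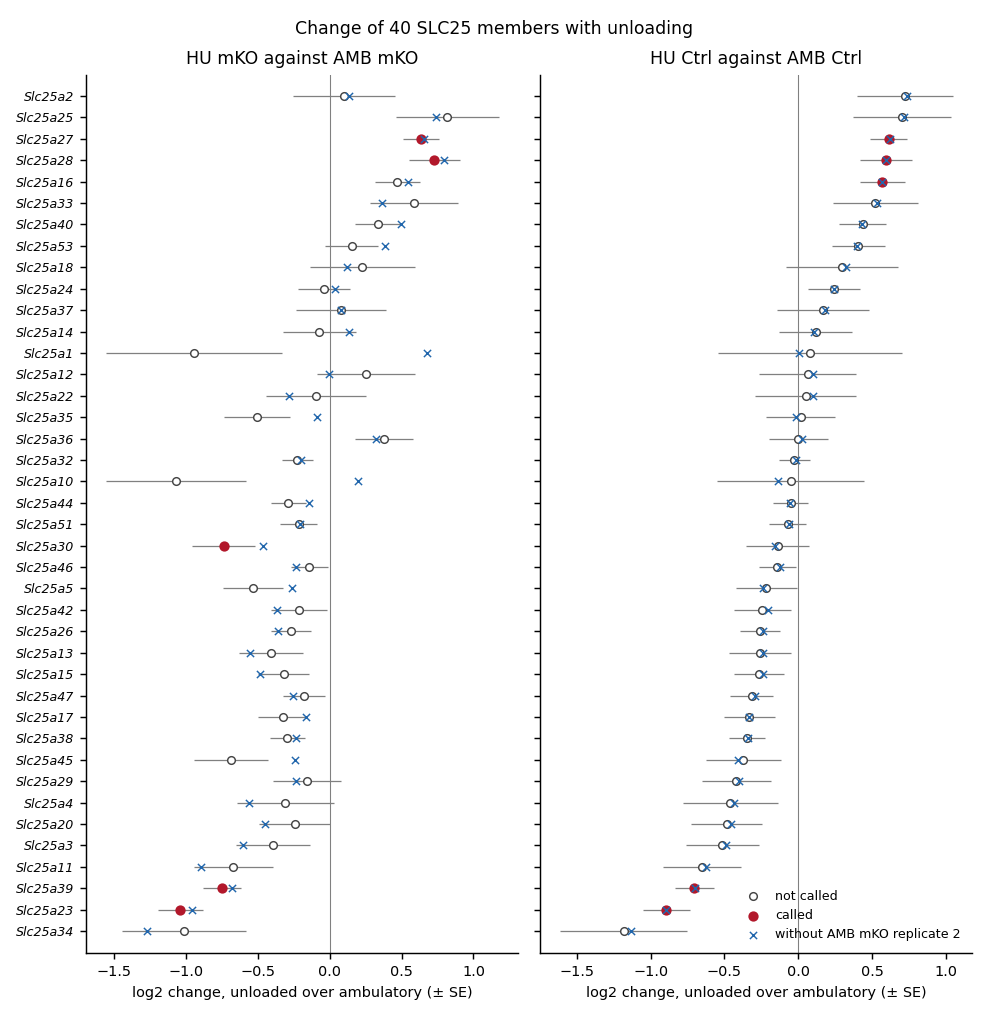
Log2 change with unloading (± SE) of each of 40 members in HU mKO against AMB mKO (left) and HU Ctrl against AMB Ctrl (right), with filled points for members past the threshold and crosses for the values without AMB mKO replicate 2. Slc25a23 and Slc25a39 are filled to the left of 0 and Slc25a27 and Slc25a28 to the right of 0 in both panels, while Slc25a1 and Slc25a10 move from about -1 to above 0 in the mKO panel when that library is left out.

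The single library had a wide reach. Without AMB mKO replicate 2 the model called 11 members in HU mKO against AMB mKO (26.8%, where all genes gave 12.9%) and 10 in HU Ctrl against AMB Ctrl (24.4%, where all genes gave 15.1%), although that library is in neither group of the Ctrl comparison. In this model all groups share 1 estimate of the spread. Leaving out AMB mKO replicate 1 instead gave 8 members in the Ctrl comparison, where all genes gave 10.9%. DESeq2 called 7 members in the mKO comparison (13.4% of all genes) and 8 in the Ctrl comparison (14.2%). A model of the compared groups alone called 5 (3.39% of all genes) and 12 (18.9%). Leaving out 3 adipocyte-rich libraries, AMB mKO replicate 2 and HU mKO replicates 2 and 3, gave 9 (13.1%) and 10 (15.9%). They had the highest sums of adipocyte markers. AMB mKO replicate 3 came next, at 3289 CPM against 4053 in HU mKO replicate 2, and was kept. Leaving out AMB mKO replicate 2 with the title letter in the model gave 11 (14% of all genes) and 11 (18.5%). Slc25a23, Slc25a39, Slc25a27 and Slc25a28 were called in both comparisons without AMB mKO replicate 2. The members added there, and Slc25a30, which was lost, are given with their roles.

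The promoter windows of 4 called members are shown because these members changed under unloading. That of Slc25a3 is shown because it holds the only match to the nuclear respiratory factor 1 motif among the 31 members with a window. Each window covers 250 bases before to 50 after a RefSeq transcript start on GRCm38.p6, on the gene's strand. The Slc25a23 window shown lies at chr17:57059793-57060092 on the minus strand, and another window of that gene overlaps it. That of Slc25a39 lies at chr11:102407468-102407767 on the minus strand, and that of Slc25a28 at chr19:43674832-43675131 on the minus strand. The Slc25a16 window lies at chr10:62920383-62920682 on the plus strand and that of Slc25a3 at chr10:91123918-91124217 on the minus strand. Capitals mark matches on either strand to the CCAAT box, to the Sp1 box GGGCGG, to the ETS site CCGGAAG and to the nuclear respiratory factor 1 motif.
Slc25a23: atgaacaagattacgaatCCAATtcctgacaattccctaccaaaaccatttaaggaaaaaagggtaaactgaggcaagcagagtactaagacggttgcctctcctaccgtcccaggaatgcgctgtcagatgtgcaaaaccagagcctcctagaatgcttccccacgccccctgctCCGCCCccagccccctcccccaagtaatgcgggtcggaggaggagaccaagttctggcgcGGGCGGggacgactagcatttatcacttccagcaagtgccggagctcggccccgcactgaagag
Slc25a39: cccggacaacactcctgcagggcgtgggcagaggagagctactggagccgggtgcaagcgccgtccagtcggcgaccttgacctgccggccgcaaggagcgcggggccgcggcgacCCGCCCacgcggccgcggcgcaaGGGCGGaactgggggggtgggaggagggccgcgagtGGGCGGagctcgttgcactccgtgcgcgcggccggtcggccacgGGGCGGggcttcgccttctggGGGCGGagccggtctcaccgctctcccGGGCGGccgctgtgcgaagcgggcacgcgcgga
Slc25a28: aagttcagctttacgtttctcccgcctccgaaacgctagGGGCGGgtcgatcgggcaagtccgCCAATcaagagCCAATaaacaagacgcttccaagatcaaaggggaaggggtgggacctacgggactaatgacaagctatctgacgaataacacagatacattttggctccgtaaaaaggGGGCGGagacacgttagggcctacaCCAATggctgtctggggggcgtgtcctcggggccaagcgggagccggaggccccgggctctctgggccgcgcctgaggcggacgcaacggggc
Slc25a16: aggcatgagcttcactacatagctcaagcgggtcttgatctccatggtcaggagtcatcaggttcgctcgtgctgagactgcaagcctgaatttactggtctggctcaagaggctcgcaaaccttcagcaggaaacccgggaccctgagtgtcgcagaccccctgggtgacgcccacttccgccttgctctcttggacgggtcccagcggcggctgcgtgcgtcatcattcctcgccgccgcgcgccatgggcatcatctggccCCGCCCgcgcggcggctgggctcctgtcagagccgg
Slc25a3: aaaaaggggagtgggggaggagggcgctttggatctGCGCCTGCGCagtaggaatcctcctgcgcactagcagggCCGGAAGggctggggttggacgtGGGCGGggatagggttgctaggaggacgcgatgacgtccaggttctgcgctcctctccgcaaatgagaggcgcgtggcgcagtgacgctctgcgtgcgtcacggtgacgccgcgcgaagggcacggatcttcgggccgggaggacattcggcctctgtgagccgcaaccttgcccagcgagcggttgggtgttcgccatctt

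Windows were at hand for 31 of the 41 members, 40 windows in all, and each motif was searched on both strands. Some members have windows that overlap, such as those of Slc25a23 and Slc25a14, so a site can be counted more than once. The set of all windows was not matched to the family for base composition or expression. The Sp1 box GGGCGG was in 35 of the 40 windows (87.5%), from 27 of the 31 members, against 35.7% of all 32851 promoter windows. The CCAAT box was in 21 (52.5%), from 18 members, against 37.4% of all windows. The E-box CACGTG was in 7 (17.5%), from 6 members, against 7.15%. The ETS site CCGGAAG was in 6 (15.0%), from 6 members, against 8.86%. The nuclear respiratory factor 1 motif was in 1 window, that of Slc25a3 (2.5%, against 4.6%), and the AAGGTCA site of oestrogen-related receptors in 1, that of Slc25a34 (2.5%, against 4.72%). No family window held the PPAR direct repeat or the YY1 motif, found in 0.0396% and 0.633% of all windows. Among the windows printed, Slc25a39 holds 6 Sp1 boxes and no CCAAT box, Slc25a28 holds 3 CCAAT boxes and 2 Sp1 boxes, Slc25a23 holds 1 CCAAT box and 2 Sp1 boxes, and Slc25a16 holds 1 Sp1 box. So members that fell and members that rose both hold Sp1 boxes, and a match is a description of letters, not of binding.

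Among the 6 carriers of adenine nucleotides and phosphate, Slc25a23 fell and the other 5 did not pass in either unloading comparison. Slc25a23 exchanges ATP-Mg for phosphate under control of calcium and thereby changes the matrix pool of adenine nucleotides. It ran from 17.0 through a median of 25.5 to 44.9 CPM in HU mKO, and from 37 through 46.7 to 70.9 in AMB mKO. It ran from 18.4 through 24.1 to 25.9 CPM in HU Ctrl, and from 27.6 through 46.6 to 61.1 in AMB Ctrl. In controls every unloaded mouse lay below every ambulatory mouse, while in mKO mice 1 unloaded library, replicate 3, reached into the ambulatory range. The log2 change was -1.04 ± 0.16 (SE) in the mKO comparison (edgeR adjusted p = 0.000382) and -0.89 ± 0.16 in the Ctrl comparison (adjusted p = 0.000617). It was below 0 within each of the 3 letters (a, b, c) closing the mouse titles, a code without a stated meaning: -1.14, -1.11 and -0.64 in mKO mice and -1.20, -0.78 and -0.86 in controls. These letter values, here and below, are differences of group means of log2(CPM + 0.5), without the sex term. Each mean covers 2 or 3 mice. Letter c of AMB mKO held only replicates 2 and 3, and letter values were not computed without replicate 2. In the unloaded groups letter a was all male and letter b all female.

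The more abundant carriers of this group overlapped between loaded and unloaded mice. Slc25a4 ran from 748.8 through 1666 to 2026 CPM in HU mKO, from 1235 through 1766 to 2102 in HU Ctrl, from 204.7 through 2295 to 2998 in AMB mKO, and from 1760.3 through 2213 to 3667 in AMB Ctrl. Its log2 change was -0.31 ± 0.33 in the mKO comparison (edgeR adjusted p = 0.584) and -0.46 ± 0.32 in the Ctrl comparison (adjusted p = 0.385), and it did not pass under any alternative, with adjusted p from 0.0572 to 0.888. In the mKO comparison it was -0.56 ± 0.22 (adjusted p = 0.0882) without AMB mKO replicate 2, the lowest of the 30 mice. Slc25a3, which brings in the phosphate for ATP synthesis, ran from 296 through 511 to 642 CPM in HU mKO, from 361 through 573 to 758 in HU Ctrl, from 165 through 833 to 919 in AMB mKO and from 595 through 792 to 1231 in AMB Ctrl. The groups overlap, and the log2 change was -0.40 ± 0.26 in mKO mice (adjusted p = 0.327) and -0.52 ± 0.25 in controls (adjusted p = 0.186). Without AMB mKO replicate 2 it was -0.60 and called in mKO mice, with adjusted p = 0.0367 in a range of 0.0367 to 0.668 over the alternatives. In controls it was -0.49 and not called without that library. Of 39 alternatives, 3 called it in controls, with adjusted p from 0.0130 to 0.326.

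Slc25a5 had a median of 42.9 CPM in HU mKO (35.1 to 72.9), 43.5 in HU Ctrl (37.2 to 54.6), 55.5 in AMB mKO (26.8 to 122) and 54.1 in AMB Ctrl (37.6 to 65.9). The AMB mKO maximum is again replicate 2, and the log2 change was -0.53 ± 0.21 in mKO mice (edgeR adjusted p = 0.0955), -0.26 without that library, and -0.22 ± 0.21 in controls (adjusted p = 0.549). The GENCODE annotation also holds a transcribed processed pseudogene, Slc25a5-ps, and how reads shared with it were counted is not given in the sources used here. Slc25a25, another calcium-regulated ATP-Mg/phosphate carrier, had a median of 55.5 CPM in HU mKO (25.5 to 81.2), 49.2 in HU Ctrl (22.2 to 106), 27.5 in AMB mKO (15.9 to 52.7) and 28.3 in AMB Ctrl (13.5 to 68.6). Both changes were above 0, in the opposite direction to those of Slc25a23, at 0.82 ± 0.36 in mKO mice (adjusted p = 0.138) and 0.70 ± 0.33 in controls (adjusted p = 0.177), and neither passed. Slc25a24, the third carrier of this kind, had medians between 6.04 and 7.50 CPM in the 4 groups.

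Of the 4 members that handle iron or glutathione, 1 fell and 1 rose in each unloading comparison. Slc25a39 carries glutathione into the matrix. It ran from 16.6 through 21.6 to 26.4 CPM in HU mKO, from 17.7 through 20.9 to 28.8 in HU Ctrl, from 30.3 through 36.8 to 45.0 in AMB mKO, and from 25.5 through 34.9 to 46.1 in AMB Ctrl. In mKO mice the unloaded and ambulatory values do not overlap, and in controls they overlap at their edges. On the log2 scale the change was -0.75 ± 0.13 in the mKO comparison (edgeR adjusted p = 0.000884) and -0.70 ± 0.13 in the Ctrl comparison (adjusted p = 0.000922). Slc25a39 and Slc25a23 were called in both comparisons in each of the 30 fits that left out 1 library. Within letters a, b and c the change of Slc25a39 was -0.96, -0.57 and -0.82 in mKO mice and -0.55, -0.67 and -0.69 in controls.

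Slc25a28 is mitoferrin 2, an iron importer of the inner membrane in many tissues. It ran from 32.2 through 40.2 to 69.8 CPM in HU mKO, from 21.04 through 40.6 to 56.9 in HU Ctrl, from 19.3 through 27.6 to 30.3 in AMB mKO, and from 20.8 through 24.8 to 29.8 in AMB Ctrl. The unloaded mKO mice all lie above the ambulatory mKO mice, while unloaded controls spread from the ambulatory range upwards. The log2 change was 0.73 ± 0.18 in the mKO comparison (edgeR adjusted p = 0.0104) and 0.60 ± 0.17 in the Ctrl comparison (adjusted p = 0.0264). By the means of 2 or 3 mice per letter and group, it was unequal between title letters. It was 1.08, 0.78 and 0.23 for a, b and c in mKO mice and 1.10, 0.66 and 0.07 in controls. The call was lost in controls without AMB Ctrl replicate 5 or without any 1 of HU Ctrl replicates 4, 5, 6 and 7, with adjusted p of at most 0.0777 (0.00673 to 0.0777 over the alternatives), and in mKO mice without HU mKO replicate 5, with adjusted p = 0.0502, in a range of 0.00105 to 0.0502.

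Slc25a37, mitoferrin 1, is the paralogue that supplies iron for haem in red cell precursors. It had a median of 18.9 CPM in HU mKO (15.4 to 77.4), 20.99 in HU Ctrl (15.99 to 39.5), 20.7 in AMB mKO (13.5 to 61.9) and 18.1 in AMB Ctrl (13.7 to 26.4). Its medians lie close together and single mice stand far above them. The fitted log2 change was 0.08 ± 0.32 in mKO mice (edgeR adjusted p = 0.901) and 0.17 ± 0.31 in controls (adjusted p = 0.788), and in mKO mice it was -0.44 without HU mKO replicate 4. Slc25a40, the paralogue of Slc25a39, had a median of 8.42 CPM in HU mKO (6.56 to 9.58), 7.48 in HU Ctrl (5.03 to 10.6), 6.08 in AMB mKO (3.16 to 10.3) and 5.78 in AMB Ctrl (4.27 to 7.75). It lay above 0 where Slc25a39 lay below, at 0.33 ± 0.16 in mKO mice (adjusted p = 0.177) and 0.44 ± 0.16 in controls (adjusted p = 0.0717). Without AMB mKO replicate 2 it was called in both, at 0.50 and 0.43.

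Among the 9 carriers of cofactors and nucleotides, Slc25a16 rose in controls. Slc25a16 is known for its part in the matrix pool of coenzyme A. It ran from 23.1 through 33.2 to 40.4 CPM in HU mKO, from 19.7 through 33.9 to 41.5 in HU Ctrl, from 15.2 through 23.4 to 28.8 in AMB mKO, and from 18.4 through 21.5 to 23.5 in AMB Ctrl. Ambulatory controls are tightly grouped, and the unloaded groups reach well above both ambulatory ranges while still overlapping them. The model gave a log2 change of 0.47 ± 0.16 in the mKO comparison (edgeR adjusted p = 0.0514) and 0.57 ± 0.15 in the Ctrl comparison (adjusted p = 0.0156). In controls the call was lost without HU Ctrl replicate 7 (adjusted p = 0.0533, in a range of 0.00369 to 0.0533 over the alternatives), and in mKO mice it passed in 13 of 39 alternatives (0.00407 to 0.160), among them DESeq2, the model without sex and that with the title letter, and, without AMB mKO replicate 2, at a log2 change of 0.55. Within letters a, b and c the change was 0.89, 0.61 and 0.05 in mKO mice and 0.78, 0.84 and 0.10 in controls.

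Slc25a42, which exchanges coenzyme A for adenine nucleotides, had a median of 47.5 CPM in HU mKO (40.2 to 56.0), 42.6 in HU Ctrl (31.7 to 63.4), 55.7 in AMB mKO (22.6 to 92.6) and 48.4 in AMB Ctrl (41.2 to 66.0). Its groups overlapped and its log2 changes, -0.21 ± 0.19 in mKO mice (-0.37 without AMB mKO replicate 2, edgeR adjusted p = 0.510 with it) and -0.24 ± 0.19 in controls (adjusted p = 0.456), did not pass. Another 6 of the group were the pyrimidine nucleotide carriers Slc25a33 and Slc25a36, the NAD carrier Slc25a51, the S-adenosylmethionine carrier Slc25a26, the folate carrier Slc25a32 and the peroxisomal carrier Slc25a17. None of these 6 passed in either comparison. Slc25a33 had medians of 28.6 CPM in HU mKO, 29.5 in HU Ctrl, 21.1 in AMB mKO and 20.9 in AMB Ctrl, with overlapping groups. In the GENCODE annotation 14.9% of its exon bases overlap an antisense gene, and the strand setting of the counting is not given in the sources used here.

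None of the 4 carriers of organic acids and acylcarnitines passed in either unloading comparison with all libraries. Slc25a11 exchanges oxoglutarate for malate in the malate-aspartate shuttle, which moves reducing equivalents into the matrix. It ran from 65.0 through 129 to 172 CPM in HU mKO, from 103 through 151 to 177 in HU Ctrl, from 39.4 through 230.0 to 287 in AMB mKO and from 165 through 221 to 342 in AMB Ctrl. Apart from AMB mKO replicate 2, the ambulatory mice lie mostly above the unloaded ones. The log2 change was -0.67 ± 0.27 in mKO mice (edgeR adjusted p = 0.113) and -0.65 ± 0.26 in controls (adjusted p = 0.111). Without AMB mKO replicate 2 it was called in both, at -0.90 and -0.63. An overlap with Rnf167 on the other strand covers 8.92% of its exon bases.

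Slc25a20, through which acylcarnitines enter the matrix for fatty acid oxidation, had a median of 73.9 CPM in HU mKO (42.6 to 90.4), 68.7 in HU Ctrl (56.8 to 94.9), 92.8 in AMB mKO (23.4 to 119) and 101 in AMB Ctrl (63.1 to 134). The groups overlap, and its log2 change was -0.24 ± 0.25 in mKO mice (edgeR adjusted p = 0.556) and -0.49 ± 0.24 in controls (adjusted p = 0.197). In mKO mice it was -0.45 ± 0.20 without AMB mKO replicate 2, the lowest mouse, and did not pass (adjusted p = 0.131, in a range of 0.131 to 0.886 over the alternatives). In controls 1 of 39 alternatives called it (adjusted p from 0.0290 to 0.320). Slc25a1 and Slc25a10, the citrate and dicarboxylate carriers used in fatty acid synthesis, were low in most libraries. Slc25a1 had a median of 6.81 CPM in HU mKO (3.85 to 33.4), 6.94 in HU Ctrl (2.47 to 13.1), 7.66 in AMB mKO (2.50 to 117) and 7.42 in AMB Ctrl (4.48 to 16.7). Slc25a10 had a median of 9.31 CPM in HU mKO (4.53 to 39.1), 7.96 in HU Ctrl (4.19 to 11.4), 9.88 in AMB mKO (6.15 to 128) and 7.88 in AMB Ctrl (5.82 to 15.3). For both, the medians are alike and the maximum is AMB mKO replicate 2. The log2 change in mKO mice was -0.95 for Slc25a1 and -1.07 for Slc25a10, neither past the test, and without that library 0.68 and 0.19.

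The 9 amino acid carriers held no called member with all libraries. Slc25a12, the calcium-regulated aspartate/glutamate carrier of muscle and brain, ran from 194 through 389.8 to 561 CPM in HU mKO, from 234 through 441 to 562 in HU Ctrl, from 29.0 through 431 to 491 in AMB mKO and from 283 through 362 to 508 in AMB Ctrl. The 4 groups cover much the same range, and the log2 change was 0.25 ± 0.34 in mKO mice (edgeR adjusted p = 0.675) and 0.06 ± 0.33 in controls (adjusted p = 0.927). It was -0.01 in mKO mice and 0.10 in controls without AMB mKO replicate 2. Its paralogue Slc25a13, prominent in liver, had medians of 2.39 CPM in HU mKO (1.42 to 3.57), 2.89 in HU Ctrl (1.81 to 4.30), 3.32 in AMB mKO (1.66 to 4.24) and 3.54 in AMB Ctrl (2.37 to 3.91). The groups overlap, with log2 changes of -0.41 ± 0.22 in mKO mice (adjusted p = 0.241) and -0.26 ± 0.21 in controls (adjusted p = 0.471). Slc25a44, a carrier of branched-chain amino acids, had medians of 27.1 CPM in HU mKO (18.8 to 31.2), 24.2 in HU Ctrl (17.7 to 31.5), 27.5 in AMB mKO (24.3 to 46.4) and 26.5 in AMB Ctrl (24.5 to 30.6).

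Slc25a44 had a log2 change of -0.29 ± 0.12 in mKO mice (edgeR adjusted p = 0.118) and of -0.05 ± 0.12 in controls (adjusted p = 0.830), and did not pass. In mKO mice it was -0.15 without AMB mKO replicate 2. Slc25a38, which carries glycine for haem synthesis, had a log2 change of -0.30 ± 0.12 in mKO mice (adjusted p = 0.122) and -0.35 ± 0.12 in controls (adjusted p = 0.0658). It was called in controls in 11 of 39 alternatives, among them 7 of the 30 fits that left out 1 library. The fit without AMB mKO replicate 2 was among these 7, at -0.34. The ornithine carrier Slc25a15 was at a log2 change of -0.32 ± 0.17 in mKO mice (adjusted p = 0.237) and was called there without that library, at -0.48. The glutamate carriers Slc25a22 and Slc25a18, the basic amino acid carrier Slc25a29 and the second ornithine carrier Slc25a2 did not pass in either comparison.

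The last 9 members are relatives of the uncoupling proteins and carriers whose substrate is less well settled, and of these Slc25a27 rose and Slc25a30 fell. Slc25a27, also called uncoupling protein 4, is known mainly from brain. It ran from 13.7 through 17.1 to 26.0 CPM in HU mKO, from 15.9 through 17.1 to 21.1 in HU Ctrl, from 9.88 through 11.2 to 13.6 in AMB mKO, and from 8.94 through 11.5 to 14.9 in AMB Ctrl. In both genotypes every unloaded mouse lay above every ambulatory mouse. On the log2 scale the change was 0.63 ± 0.12 in the mKO comparison (edgeR adjusted p = 0.00236) and 0.61 ± 0.12 in the Ctrl comparison (adjusted p = 0.00193). It was called in both in each of the 30 fits that left out 1 library. Within letters a, b and c it was 0.78, 0.30 and 0.77 in mKO mice and 0.55, 0.56 and 0.64 in controls.

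Slc25a30, known as a carrier of kidney mitochondria, was low. It ran from 3.86 through 4.66 to 6.60 CPM in HU mKO, from 4.16 through 5.56 to 8.29 in HU Ctrl, from 4.74 through 8.22 to 14.9 in AMB mKO, and from 4.17 through 6.79 to 8.09 in AMB Ctrl. The groups overlap, and AMB mKO replicate 2 is the highest of all. The model gave a log2 change of -0.74 ± 0.22 in the mKO comparison (edgeR adjusted p = 0.0305) and -0.14 ± 0.22 in the Ctrl comparison (adjusted p = 0.736). Without AMB mKO replicate 2 it was -0.46 with adjusted p = 0.163, in a range of 0.00346 to 0.163 over the alternatives. Among the fits that left out 1 library, the call was also lost without AMB mKO replicate 3 or HU mKO replicate 4, 5 or 6. It held in 25 of those 30 fits and in 31 of all 39 alternatives.

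Slc25a34, an orphan carrier, had the lowest fitted change of the family in controls but a wide spread. It ran from 15.5 through 31.2 to 36.7 CPM in HU mKO, from 13.4 through 26.2 to 47.5 in HU Ctrl, from 2.25 through 54.2 to 118 in AMB mKO, and from 34.5 through 50.9 to 95.9 in AMB Ctrl. Most ambulatory mice lie above most unloaded ones, with AMB mKO replicate 2 far below both. The fitted log2 change was -1.01 ± 0.43 in mKO mice (edgeR adjusted p = 0.127) and -1.18 ± 0.43 in controls (adjusted p = 0.0748). Without that library it was called in both, at -1.27 and -1.13. Of 39 alternatives, 3 called it in mKO mice and 7 in controls. Slc25a14, Slc25a35, Slc25a45, Slc25a46, Slc25a47 and Slc25a53 did not pass in either comparison. Of these, Slc25a35 shares 31.3% of its exon bases with Rangrf on the other strand, so that its counts cannot be assigned with certainty while the strand setting is not given.

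**Figure D3:**
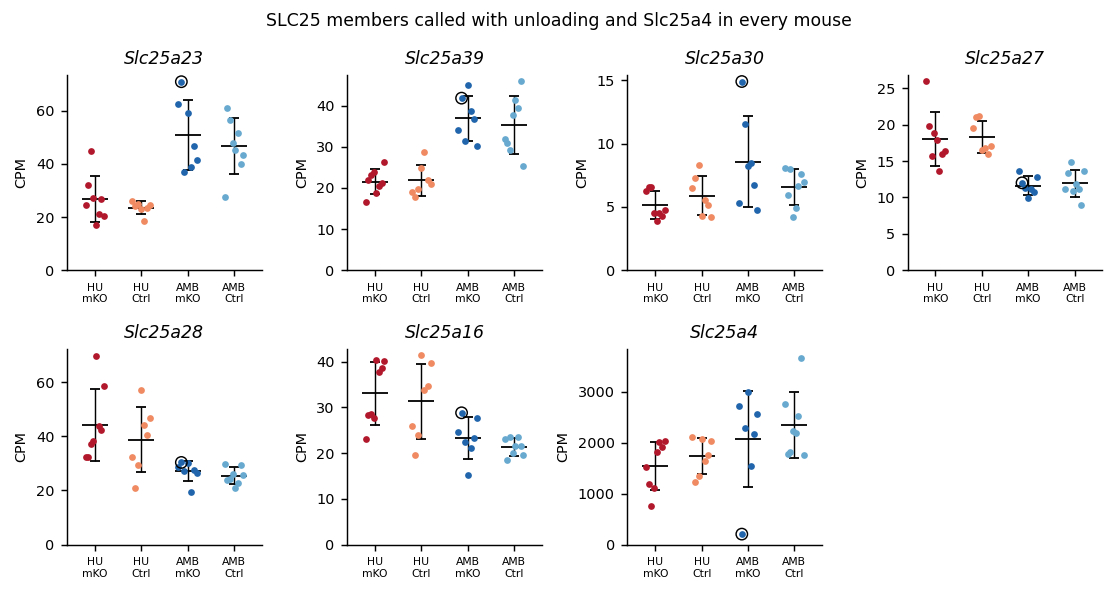
CPM of 6 members called in at least 1 unloading comparison and of Slc25a4, with 1 point per mouse, the horizontal line at the group mean and bars of 1 SD; the circled point is AMB mKO replicate 2. Slc25a23 and Slc25a39 are lower and Slc25a27 is higher in both unloaded groups, and Slc25a4 overlaps between all 4 groups.

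Paralogues were compared within a library as the log2 ratio of their counts, which does not depend on how libraries are scaled. For 9 pairs and 4 comparisons of groups, 36 exact two-sided permutation tests were run, and 5 had a Benjamini-Hochberg adjusted p below 0.05. Each of these 5 holds a member that edgeR called in the same comparison of the same mice, so they are not independent of those calls. Slc25a23 over Slc25a24 had a mean log2 ratio of 1.97 ± 0.19 in HU mKO (SD, n = 8) and 2.97 ± 0.57 in AMB mKO (n = 7). That is a difference of -0.996 (exact permutation p = 0.000777, adjusted p = 0.00932). In controls the ratio was 1.64 ± 0.32 in HU Ctrl (n = 7) and 2.83 ± 0.26 in AMB Ctrl (n = 8), a difference of -1.18 (exact permutation p = 0.000155, the smallest that the 6435 permutations can give, adjusted p = 0.0028). The count ratio was thus lower after unloading in both genotypes. Slc25a24 alone had a log2 change of -0.04 ± 0.18 in mKO mice (0.04 without AMB mKO replicate 2) and 0.24 ± 0.18 in controls and did not pass edgeR's test.

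Slc25a40 over Slc25a39 had a mean log2 ratio of -1.39 ± 0.26 in HU mKO (SD, n = 8) and -2.68 ± 0.61 in AMB mKO (n = 7). The difference was 1.29 (exact permutation p = 0.000155, adjusted p = 0.0028), and all 8 HU mKO mice lay above all 7 AMB mKO mice. In controls it was -1.56 ± 0.55 in HU Ctrl and -2.59 ± 0.52 in AMB Ctrl, a difference of 1.03 (exact permutation p = 0.00326, adjusted p = 0.0294). Slc25a39 stayed the more frequent of the pair in each group mean. Slc25a42 over Slc25a16 had a mean log2 ratio of 0.50 ± 0.57 in HU Ctrl and 1.26 ± 0.27 in AMB Ctrl, a difference of -0.76 (exact permutation p = 0.00606, adjusted p = 0.0436). With permutation within sexes its adjusted p was 0.0551, in a range of 0.0364 to 0.0551 over the alternatives of this exact test. In mKO mice the ratio was 0.54 ± 0.25 in HU mKO and 1.15 ± 0.83 in AMB mKO, a difference of -0.61 that did not pass (exact permutation p = 0.0721, adjusted p = 0.324). It did pass without AMB mKO replicate 2, at -0.86 (exact permutation p = 0.000999, adjusted p = 0.0120), and it was then the sixth of the 36 tests to do so. Slc25a37 over Slc25a28, the mitoferrin pair, did not pass in any comparison, nor did Slc25a4 over Slc25a5, and no pair passed between genotypes.

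**Figure D4:**
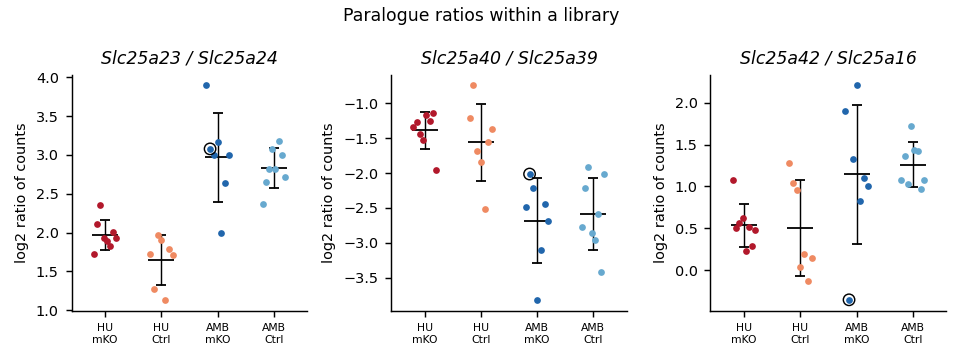
Log2 ratio of the counts of 2 paralogues in the same library, with 1 point per mouse, the group mean and bars of 1 SD; the circled point is AMB mKO replicate 2. Slc25a23 over Slc25a24 is lower and Slc25a40 over Slc25a39 is higher in both unloaded groups, and Slc25a42 over Slc25a16 is lower in HU Ctrl than in AMB Ctrl.

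Loss of AMPK in muscle was followed by no called change of a member in either loading state. In AMB mKO against AMB Ctrl 0 of the 41 members passed edgeR's test, where 0.0172% of all genes passed. There were 5 members at an unadjusted p below 0.05 (12.2%, where all genes gave 7.7%), and DESeq2 also called 0, with 0.0515% of all genes. These 5 were Slc25a35 (log2 change 0.74 ± 0.23), Slc25a10 (1.57 ± 0.49), Slc25a36 (-0.47 ± 0.20), Slc25a1 (1.37 ± 0.62) and Slc25a44 (0.25 ± 0.12), with edgeR adjusted p between 0.522 and 0.635. They were, without AMB mKO replicate 2, 0.36, 0.47, -0.40, 0.02 and 0.13. In HU mKO against HU Ctrl 0 members passed, where 0.0172% of all genes passed, DESeq2 called 0, also with 0.0172% of all genes, and 1 member, Slc25a2 at -0.75 ± 0.33, had an unadjusted p below 0.05 (2.44%, where all genes gave 1.84%). Slc25a2 had a median of 0.53 CPM in HU mKO (0.135 to 0.798) and 0.86 CPM in HU Ctrl (0.486 to 1.25), so few counts stand behind this value.

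The response to unloading was compared between genotypes through the interaction term of the same model. It called 0 members, with 0% of all genes called, DESeq2 called 0, also with 0% of all genes, and 0 members had an unadjusted p below 0.05, where 2.46% of all genes did. The smallest p was that of Slc25a30, at a difference of -0.60 ± 0.31 (unadjusted p = 0.0635, edgeR adjusted p = 0.999), and at -0.31 without AMB mKO replicate 2. The members called in 1 genotype alone were therefore not shown to respond differently there. Males and females were set against each other in the same model, and 0 members passed, where 0.2% of all genes did, and DESeq2 also called 0, with 0.761% of all genes. There were 7 members at an unadjusted p below 0.05 (17.1%, where all genes gave 12.7%). Slc25a40 had the smallest p, at -0.40 ± 0.11 in males against females (adjusted p = 0.165).

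Some members and cell-type markers were high together in single libraries. The erythroid list (5 of 5 markers detected in the series) summed to between 97.6 and 3190 CPM in HU mKO, 135 and 1457 in HU Ctrl, 242 and 2686 in AMB mKO, and 166 and 827 in AMB Ctrl. The highest sum in HU mKO, HU Ctrl and AMB mKO was in the same mouse as the highest Slc25a37, which was 77.4 CPM in HU mKO replicate 4, 39.5 in HU Ctrl replicate 5 and 61.9 in AMB mKO replicate 5. In AMB Ctrl, replicate 6 was highest in both, with 26.4 CPM of Slc25a37. The adipocyte list (10 of 10 detected) summed to between 1151 and 4705 CPM in HU mKO, 1231 and 1712 in HU Ctrl, 1058 and 12178 in AMB mKO, and 857 and 2131 in AMB Ctrl. AMB mKO replicate 2 was highest in this sum and in Slc25a1 and Slc25a10, and HU mKO replicate 3, the highest unloaded mouse in the sum, had 39.1 CPM of Slc25a10 and 32.8 CPM of Slc25a1. Both mice were also the highest of their groups in the sum of 5 Schwann markers. That sum was 1536 CPM in AMB mKO replicate 2 (group median 60.3) and 1748 in HU mKO replicate 3 (group median 73.6). The highest Schwann sum was 752 CPM in HU Ctrl and 590 in AMB Ctrl. The part of red cells, adipocytes or Schwann cells in these levels was not tested.

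**Figure D5:**
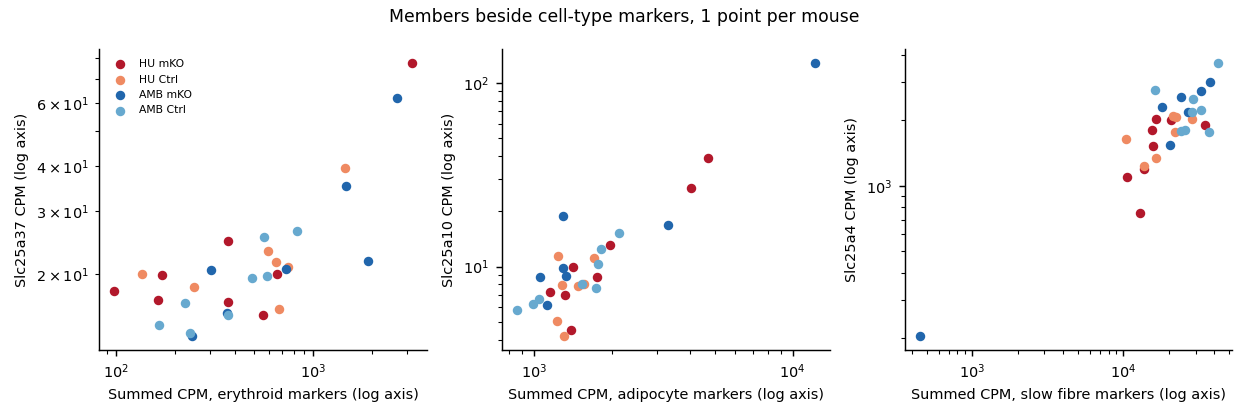
Levels of Slc25a37, Slc25a10 and Slc25a4 in each of the 30 mice against the summed CPM of the erythroid, adipocyte and slow fibre markers, on log axes, with colours for the 4 groups. The mouse with the highest erythroid sum has the highest Slc25a37, and AMB mKO replicate 2 has the highest adipocyte sum, the highest Slc25a10 and the lowest Slc25a4.

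The slow fibre list (7 of 7 detected) had median sums of 15601 CPM in HU mKO (10573 to 34742), 21234 in HU Ctrl (10468 to 28249), 24233 in AMB mKO (449 to 37471) and 28825 in AMB Ctrl (16242 to 41936). All 7 of its genes lay below 0 in both unloading comparisons, with median log2 changes of -0.66 in mKO mice and -0.73 in controls, and 0 passed edgeR's test, although 1 and 3 had an unadjusted p below 0.05. When AMB mKO replicate 2 was left out, 4 of the 7 fell in mKO mice and 3 in controls, Myl2, Myl3 and Tnni1 in both. In that fit 12.9% of all genes passed in mKO mice and 15.1% in controls. The fast fibre list (10 of 10 detected) had median sums of 50324 CPM in HU mKO (20783 to 101544) and 56319 in HU Ctrl (17341 to 76624). They were 37232 in AMB mKO (3287 to 46259) and 30328 in AMB Ctrl (17701 to 47694). In each comparison 3 of its genes were higher, Actn3, Pvalb and Myh1, and 1 lower, Myh2. Pvalb was not called in mKO mice without AMB mKO replicate 2. Of all genes, 5.07% rose and 4.6% fell in mKO mice, and 5.18% rose and 5.53% fell in controls. Of the other lists, 1 gene fell in each comparison among 5 fibro-adipogenic (Col1a1) and among 5 tenocyte (Scx) markers, Kdr fell among 5 endothelial markers in both with Tie1 in controls, and 0 passed among the adipocyte, erythroid, macrophage and Schwann markers. Slc25a23 and Slc25a39 fell, and Slc25a27 and Slc25a28 rose, in the same comparisons, and the part of fibre type in those changes was not tested.

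Of 13 tested genes for the import of carriers into the inner membrane, 3 fell and 0 rose in HU mKO against AMB mKO (median -0.32). In HU Ctrl against AMB Ctrl 4 fell and 0 rose (median -0.26). Of all genes tested, 4.6% fell in the mKO comparison (median -0.03) and 5.53% in the Ctrl comparison (median 0.03). Timm22, the core of the complex that inserts carriers, averaged 11.5 ± 0.99 CPM in HU mKO and 18.6 ± 3.9 in AMB mKO, a log2 change of -0.60 ± 0.11 (edgeR adjusted p = 0.00155). It averaged 12.2 ± 1.4 CPM in HU Ctrl and 19.5 ± 3.1 in AMB Ctrl, a change of -0.72 ± 0.11 (adjusted p = 0.000153). The intermembrane chaperones Timm10 and Timm13 fell as well, by 0.70 and 0.57 in mKO mice and by 1.02 and 0.78 in controls, on the log2 scale. The 15 tested subunits of ATP synthase had 1 lower and 0 higher in mKO mice (median -0.30) and 4 lower and 0 higher in controls (median -0.55), and Atp5g3 was lower in both, at -0.68 and -0.75. Leaving out AMB mKO replicate 2, 4 subunits were lower in mKO mice (median -0.50) and 8 in controls (median -0.53), and 5 import genes in each comparison. Of all genes, 12.9% passed in mKO mice and 15.1% in controls in that fit, in either direction.

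Of 8 enzymes that work with the carriers in the malate-aspartate shuttle and in carnitine-dependent fatty acid entry, Mdh1 and Cpt2 fell in both comparisons. Of all genes tested, 4.6% fell and 5.07% rose in mKO mice, and 5.53% fell and 5.18% rose in controls. The cytosolic malate dehydrogenase Mdh1 changed by -0.88 ± 0.22 in mKO mice (edgeR adjusted p = 0.0109) and -0.93 ± 0.21 in controls (adjusted p = 0.00547). The inner membrane carnitine palmitoyltransferase Cpt2 changed by -0.65 ± 0.19 (adjusted p = 0.0285) and -0.71 ± 0.18 (adjusted p = 0.0134). All 8 lay below 0 in both comparisons. Without AMB mKO replicate 2, 5 passed in mKO mice and 4 in controls, with Mdh2 and Cpt1b added in both. In that fit 12.9% of all genes passed in mKO mice and 15.1% in controls. Of 8 genes of the calcium uniporter and its exchangers, Micu3, a regulator of the uniporter, rose in both, at 0.78 ± 0.13 in mKO mice (adjusted p = 0.000861) and 0.79 ± 0.13 in controls (adjusted p = 0.00038), and 0 fell. Without that library 1 fell in mKO mice and 3 in controls, with Micu2 in both. Among 7 other carriers of the inner membrane, the pyruvate carrier subunit Mpc2 fell in controls, at -0.56 ± 0.18 (adjusted p = 0.0404), and none passed in mKO mice (-0.33 ± 0.18 for Mpc2). Mpc2 was called there without AMB mKO replicate 2, at -0.48.

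Carrier proteins of the same family under other symbols were also read, 4 of which were tested. Mtch1, a relative in the outer membrane, averaged 64.4 ± 5.6 CPM in HU mKO and 92.6 ± 25.8 in AMB mKO, a log2 change of -0.53 ± 0.13 (edgeR adjusted p = 0.0128). It averaged 65.0 ± 3.7 CPM in HU Ctrl and 89.1 ± 15.97 in AMB Ctrl, a change of -0.45 ± 0.13 (adjusted p = 0.0240). Its paralogue Mtch2 had a log2 change of 0.04 ± 0.13 in mKO mice and -0.03 ± 0.12 in controls, and did not pass. The uncoupling protein Ucp3 of skeletal muscle averaged 221 ± 64.4 CPM in HU mKO, 210 ± 128 in HU Ctrl, 160 ± 92.9 in AMB mKO and 138 ± 51.8 in AMB Ctrl. It overlapped between groups and did not pass (0.59 ± 0.41 in mKO mice and 0.50 ± 0.40 in controls), and neither did Ucp2. Between genotypes none of the genes in these 6 lists passed, in either loading state.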

How the data were processed

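RNA of 30 soleus muscles was sequenced, and the authors deposited 1 table of raw counts per gene. Reads were handled with STAR 2.7.9a, featureCounts 1.6.3, DESeq2 1.34.0 and cutadapt 1.16 on the mouse build GRCm39, per the submitters' processing notes. Neither the annotation nor the strand setting of the counting is stated, and the library kit keeps strand, per the labels' protocols. Those protocols also describe human and cultured-cell work that the sample labels do not mention.

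Symbols came from the reference tables for 52073 genes, and 4907 kept their identifier. From the deposited counts, edgeR 4.0.16 in R 4.3.3 was fitted with TMM scaling, filterByExpr at a minimum of 10 counts and a robust quasi-likelihood test on group and sex, which left 17466 genes. Adjusted p-values are Benjamini-Hochberg over all of them, with a threshold of 0.05. Interaction and sex were terms of the same model. DESeq2 1.42.0, other scaling and filters, the title letter, and leaving out single libraries were alternatives. The test was tried on simulated data. Lengths are merged exons of GENCODE, and promoters are RefSeq's on GRCm38.p6, an older build than the authors'.

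Totals of 12.1 to 20.9 M counts limit members such as Slc25a2 and Slc25a18. Nothing says that mice were independent beyond being separate animals. The edgeR p-values set a group difference against the spread between these mice, and the permutation p-values set it against relabelled mice. Both take the mice as independent. Members, role groups, related lists and marker lists were chosen with earlier results of these data known. By rule, called members and 12 fixed muscle carriers are given with the values of their mice, and of related lists up to 4 genes with the smallest p. Counts over the family include 1 called member that is not reported here. Members named beyond that, and the CCAAT, Sp1 and ETS motifs, were chosen after their values were seen.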

Additional observations from a re-analysis of the deposited data

Results flagged for a closer look

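In 16 of 160 combinations of a member and a group, the highest or lowest mouse lay far from the others of its group by Dixon's test at the 95% level. For independent, normally distributed values, chance alone gives such a value in about 1 in 20 groups. The CPM tested here were not put on a log scale and the members share libraries, so that rate need not hold. AMB mKO replicate 2 gave 7 of the 16, and the part of its other tissue in them was not tested.

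In AMB mKO replicate 2, Slc25a10 was at 128 CPM (the other mice of the group at 6.15 to 18.9) and Slc25a1 at 117 CPM (2.50 to 16.2). Slc25a35 was at 20.4 CPM (5.06 to 6.53) and the branched-chain amino acid carrier Slc25a44 at 46.4 CPM (24.3 to 31.8). Slc25a53 was at 7.78 CPM (3.00 to 4.77) and Slc25a45 at 7.56 CPM (1.86 to 2.92). The ornithine carrier Slc25a15 was low there, at 7.15 CPM (15.3 to 19.7). This mouse also had the highest adipocyte sum, the lowest Myh7 and the lowest fast fibre sum of the series. Its Schwann sum, 1536 CPM, was the highest of its group.

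Slc25a37 stood high in HU mKO replicate 4, at 77.4 CPM (15.4 to 24.8), and in HU Ctrl replicate 5, at 39.5 CPM (15.99 to 23.2), the mice with the highest erythroid sums of their groups. HU Ctrl replicate 5 was also low in Slc25a23, at 18.4 CPM (23.1 to 25.9), and in Slc25a32, at 11.0 CPM (13.8 to 15.2). HU Ctrl replicate 1 was high in the nucleotide carrier Slc25a36, at 137 CPM (53.9 to 88.4), and in Slc25a17, at 25.1 CPM (14.9 to 19.0).

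The remaining 3 were all low. The NAD carrier Slc25a51 was at 45.8 CPM in AMB mKO replicate 4 (71.1 to 77.2), Slc25a28 at 19.3 CPM in AMB mKO replicate 5 (26.6 to 30.3), and Slc25a2 at 0.135 CPM in AMB Ctrl replicate 8 (0.465 to 0.666).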

How the results depend on the processing

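The count of called members in HU Ctrl against AMB Ctrl was 5. It was 8 with DESeq2, 12 with the compared groups alone, 10 without 3 adipocyte-rich libraries, 11 without AMB mKO replicate 2 and with the title letter, and 4 to 10 when 1 library was left out. In HU mKO against AMB mKO it was 6, with 11 without AMB mKO replicate 2 and with the title letter, a setting chosen after seeing the data, and 4 to 11 when 1 library was left out. The cause was not tested. Between genotypes, for the interaction and between sexes the count was 0 under each alternative run. Among the changes of single members, that of Slc25a12 in controls was -0.0646 with the title letter and -0.0614 to 0.166 over the left-out libraries, and in mKO mice -0.0060 to 0.490. Slc25a37 in mKO mice was -0.0474 without sex, -0.0256 with the title letter, -0.0134 without AMB mKO replicate 2 and with the title letter, and -0.442 to 0.366 over the left-out libraries. Over the left-out libraries the range was -0.111 to 0.0453 for Slc25a44 in controls and -0.369 to 0.0459 for Slc25a42 in mKO mice. Slc25a1 in AMB mKO against AMB Ctrl was -0.171 without those 3 adipocyte-rich libraries. None of these passed the test as reported. No paired analysis was possible because the replicate numbers follow accession order and the title numbers mark single mice. Depth limits the lowest members, Slc25a2 and Slc25a18.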
